A study of Mus musculus with 16 samples.

Results

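The genes described here are 10 mouse genes that carry dietary fat from the gut lumen into chylomicrons: *Apoa1*, *Apoa4*, *Apob*, *Apoc3*, *Mttp*, *Fabp1*, *Fabp2*, *Mogat2*, *Dgat1* and *Cd36*. They were chosen by name, each symbol matched 1 Ensembl identifier, and they are 10 of 45513 genes in the count files and 10 of 15323 genes with enough reads to be tested. RNA was sequenced from EpCAM+tdTom+ and EpCAM+tdTom- live cells sorted from the small intestine of each of 8 mice, which gave 8 libraries of each fraction and 16 in all. Every mouse was Atoh1(WT)CreERT2 R26RtdTom, so the tdTom- cells came from the same tamoxifen-treated animals as the tdTom+ cells and are not cells of untreated or wild-type mice. In this line CreERT2 sits downstream of the *Atoh1* coding sequence, and tamoxifen turns on the red reporter in cells that express *Atoh1*, the master transcription factor of the secretory lineage, and in the progeny of those cells. Per the labels the animals received 1 mg tamoxifen on each of 3 days, the schedule that the study's methods also give for defining its secretory signature from this comparison, although their general paragraph on RNA sequencing describes 1 injection on the day before collection. The study's methods give male and female C57BL/6 mice of 8 to 16 weeks for its experiments, and the age and sex of each mouse were not used here.

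Fat absorption is a task of the absorptive enterocyte. Fatty acids and monoacylglycerol taken up across the brush border are bound by cytosolic carriers, rebuilt into triglyceride at the endoplasmic reticulum, and loaded by the microsomal transfer protein onto apolipoprotein B to form the chylomicron, which acquires further apolipoproteins and leaves for the lymph. Goblet and Paneth cells, the secretory cells of the same epithelium, are known for mucus and antimicrobial peptides and not for this task. The comparison of fractions asks how the transcripts of each step differ between the cells marked through *Atoh1* and the other sorted epithelial cells. Per the study's methods, the cells came from pooled crypt-enriched preparations of the proximal small intestine, and the villus-enriched part was discarded. Levels given here are thus not those of the whole epithelium.

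The libraries held 17116405 to 25323567 counts assigned to genes. The labels of the fractions were checked on *Atoh1*, which rose from 0.718 ± 0.247 CPM (counts per 1000000 counts of the scaled library) in tdTom- to 62.5 ± 12.7 CPM in the tdTom+ fraction (SD, n = 8). All 7 goblet and all 5 Paneth markers were higher in tdTom+, and all 7 absorptive markers that are not among the 10 genes (*Alpi*, *Sis*, *Lct*, *Treh*, *Anpep*, *Slc5a1* and *Slc2a2*) were lower. Of 4 stem cell markers, *Lgr5* (log2 fold change 0.89, edgeR adjusted p = 0.00017) and *Smoc2* (0.54, edgeR adjusted p = 0.0012) were higher in tdTom+, and *Olfm4* (0.34) and *Ascl2* (0.31) did not pass the threshold. *Epcam*, the surface protein used in the sort, had a log2 fold change of -0.11 (edgeR adjusted p = 0.11). Mouse 7 stood apart: its tdTom- library had a summed absorptive marker level of 7350.5 CPM against 13286 to 19058 CPM in the other mice and a summed stem cell marker level of 2217 CPM against 784 to 1305 CPM. Its tdTom+ library had 131932 CPM of Paneth markers against 48750 to 92513 CPM in the others. The values without mouse 7 are given with the results.

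All 10 genes were lower in tdTom+ cells, by 4.72-fold (*Dgat1*) to 12.5-fold (*Apoa4*), in 8 of 8 mice each (edgeR's quasi-likelihood test with the mouse as a block, Benjamini-Hochberg adjustment over all genes tested, largest adjusted p of the 10 = 1.9e-10). Over all 15323 genes tested, 30.0% were lower in tdTom+ and 25.8% higher by the same threshold (adjusted p under 0.01), and 55.8% passed in either direction. A log2 fold change of -1 or lower together with that threshold was met by 11.5% of all genes and by all 10. The median log2 fold change was -2.88 over the 10 genes and 0.017 over all genes tested. Levels of the fractions did not overlap for any of the 10 genes, a pattern in the same direction found in 17.0% of all genes tested. Without mouse 7 all 10 were still lower, with log2 fold changes from -3.60 (*Apoa4*) to -2.23 (*Dgat1*). These are bulk libraries of sorted cells, in which fewer cells of a type and less RNA per cell cannot be told apart.

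**Figure D1:**
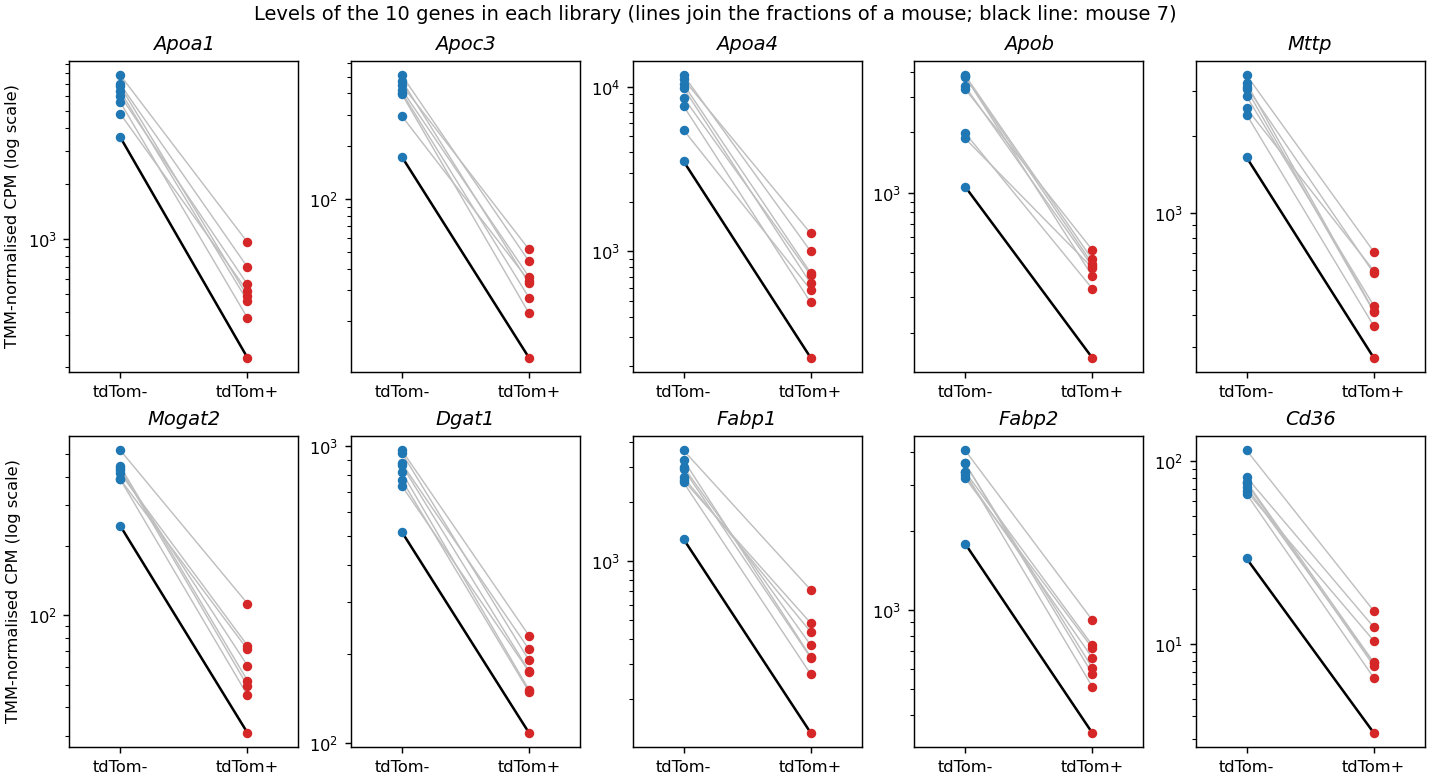
Level of each of the 10 genes in CPM scaled by TMM, the trimmed mean of M-values (log axis, a separate range for each panel) in the 8 tdTom- (blue) and 8 tdTom+ (red) libraries, with a line for each mouse. Every line falls, the fractions do not overlap in any panel, and mouse 7 (black) is lowest on both sides in all 10 panels.

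The upstream sequence of 5 of the genes is shown so that their start regions can be set side by side. All 10 genes fell, and a link between sequence and fall was not tested. The letters are from RefSeq (GRCm38.p6), are read 5′ to 3′ on the plus strand, which is the strand of all 5 genes, and stop at the last base before the first annotated exon. They cover chr9:46228380-46228579 for *Apoa1*, chr9:46240594-46240695 for *Apoa4*, chr12:7977427-7977647 for *Apob*, chr6:71199629-71199826 for *Fabp1* and chr3:122894822-122895071 for *Fabp2*. Capitals mark matches, on either strand, to the 6 short motifs described next.
*Apoa1*: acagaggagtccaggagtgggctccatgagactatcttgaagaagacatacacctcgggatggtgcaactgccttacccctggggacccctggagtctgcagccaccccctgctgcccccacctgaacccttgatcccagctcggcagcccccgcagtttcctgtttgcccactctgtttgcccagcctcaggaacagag
*Apoa4*: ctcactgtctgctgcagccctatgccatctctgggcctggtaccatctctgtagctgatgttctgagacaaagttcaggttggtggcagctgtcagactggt
*Apob*: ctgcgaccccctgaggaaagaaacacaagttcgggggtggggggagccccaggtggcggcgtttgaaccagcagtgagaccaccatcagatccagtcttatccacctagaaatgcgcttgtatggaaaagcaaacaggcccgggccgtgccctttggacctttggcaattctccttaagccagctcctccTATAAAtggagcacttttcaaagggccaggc
*Fabp1*: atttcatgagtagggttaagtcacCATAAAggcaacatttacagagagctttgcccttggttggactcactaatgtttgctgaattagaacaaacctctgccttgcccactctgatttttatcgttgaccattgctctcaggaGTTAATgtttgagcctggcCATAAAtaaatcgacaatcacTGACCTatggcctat
*Fabp2*: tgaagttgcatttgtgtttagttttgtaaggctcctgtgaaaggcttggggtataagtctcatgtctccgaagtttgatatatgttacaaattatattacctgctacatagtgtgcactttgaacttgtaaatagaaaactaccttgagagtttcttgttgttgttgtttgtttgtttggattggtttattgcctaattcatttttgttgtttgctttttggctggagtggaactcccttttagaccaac

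Windows of 250 bases before the RefSeq start were found for 7 of the 10 genes, with no entry for *Apoc3*, *Mogat2* and *Dgat1*. In the 7 windows CAAAGTC, a core of the HNF4 site, had no match, while 3.84% of 32851 windows of all genes held one. AGATAA, the core letters bound by GATA factors, also had no match in the 7 and was in 9.99% of all windows. AGGTCA, the core element of nuclear receptors, was in 2 of 7 (*Fabp1* and *Cd36*) and in 14.0% of all windows. TTTATG, a CDX site that reads CATAAA on the other strand, was in the same 2 of 7 and in 10.8% of all, and in *Cd36* it overlaps the AGGTCA match. GTTAAT, which is one arm of the HNF1 site, was in *Fabp1* alone of the 7 and in 6.43% of all, and TATAAA, the TATA box, was in *Apob* and *Fabp1* and in 12.4% of all. *Fabp1* thus held 4 of the 6 motifs, with TTTATG at -226 and -88, GTTAAT at -107, AGGTCA at -67 and -9 and TATAAA at -30 from the RefSeq start, of which the last bases before the start are not printed. *Apoa1*, *Apoa4*, *Fabp2* and *Mttp* held none. The *Cd36* window (chr5:17835897-17836146) lies inside the gene as annotated in the count files (17781690 to 17888801). The bases after its start were not found in an annotated *Cd36* transcript, so its matches may not lie at a *Cd36* start. All of these are matches of letters in a short window only.

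The largest falls were those of 3 apolipoprotein genes that are neighbours on chromosome 9: *Apoa1* (ENSMUSG00000032083, plus strand, 46228580 to 46230466), *Apoc3* (ENSMUSG00000032081, minus strand, 46232933 to 46235636) and *Apoa4* (ENSMUSG00000032080, plus strand, 46240696 to 46243459), all in the coordinates of the deposited files (GRCm38). *Apoa1* encodes the main protein of high-density lipoprotein, which the intestine also puts on chylomicrons. It was at 3575, 6196 and 7795 CPM (lowest, median and highest library) in tdTom- and at 224, 502 and 957 CPM in tdTom+ cells. Even the highest tdTom+ library, that of mouse 5, lay 3.74-fold under the lowest tdTom- library. The log2 fold change was -3.56 (SE 0.13, edgeR adjusted p = 2.4e-11), so that 8.48% of the tdTom- level was left. *Apoa4*, which encodes an apolipoprotein made mostly by the intestine after a fatty meal, was at 3520, 9201 and 11735 CPM in tdTom- and at 225, 676 and 1283 CPM in tdTom+ cells. In tdTom- its spread was wide, since mice 7 and 8 had the lowest levels. Its log2 fold change was -3.65 (SE 0.12, edgeR adjusted p = 1.5e-11). *Apoa4* shares 632 of its 1815 exon bases with *Gm10680* on the opposite strand, and the authors counted reads by strand.

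*Apoc3*, which encodes an inhibitor of lipoprotein lipase carried on triglyceride-rich particles, was at 174, 413 and 509 CPM in tdTom- and at 12.4, 33.5 and 51.5 CPM in tdTom+ cells. Again mouse 7 was lowest in both fractions and the fractions were apart, by 3.38-fold at the nearest libraries. The log2 fold change was -3.62 (SE 0.12, edgeR adjusted p = 1.1e-11). Among all 15323 genes tested, ordered from the largest fall, *Apoa4* was at position 32, *Apoc3* at 36 and *Apoa1* at 41.

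The particle itself is built on apolipoprotein B. *Apob* (ENSMUSG00000020609, chromosome 12, 7977648 to 8016835) was at 1072, 3342 and 3853 CPM in tdTom- and at 149.7, 425 and 517 CPM in tdTom+ cells. It was the most unevenly expressed of the 10 in tdTom- (coefficient of variation 37.5%), with mice 4, 7 and 8 at 1986, 1072 and 1865 CPM and the other 5 mice at 3292 to 3853 CPM, and 1 of the more even ones in tdTom+ (28.6%). It was also the single gene of the 10 that varied less in tdTom+ than in tdTom-. Its log2 fold change was -2.84 (SE 0.12, edgeR adjusted p = 1.2e-10). *Mttp* (ENSMUSG00000028158, chromosome 3, 138089854 to 138144968), which encodes the large subunit of the microsomal triglyceride transfer protein, was at 1649, 2946 and 3446 CPM in tdTom- and at 273, 425 and 707 CPM in tdTom+ cells. The lowest tdTom- library stayed 2.33-fold above the highest tdTom+ library. *Mttp* had a log2 fold change of -2.58 (SE 0.10, edgeR adjusted p = 6.7e-11). Its exons share 457 of 6206 bases with *Trmt10a* and 132 with *Gm43691*, both on the opposite strand.

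Triglyceride is rebuilt in the enterocyte mainly through the monoacylglycerol pathway. *Mogat2* (ENSMUSG00000052396, chromosome 7, 99219084 to 99238619), the acyltransferase that turns monoacylglycerol into diacylglycerol, was at 245, 419 and 520 CPM in tdTom- and at 31.0, 56.4 and 113 CPM in tdTom+ cells. Mouse 5 was highest in both fractions. Its log2 fold change was -2.78 (SE 0.11, edgeR adjusted p = 7.5e-11). *Dgat1* (ENSMUSG00000022555, chromosome 15, 76502015 to 76511951), which adds the last fatty acid, was at 515, 841 and 970.0 CPM in tdTom- and at 108, 175 and 231 CPM in tdTom+ cells. It was the most even of the 10 genes between mice in both fractions, with coefficients of variation of 17.8% and 21.8%, and it had the smallest fall. The log2 fold change was -2.24 (SE 0.065, edgeR adjusted p = 3.9e-12), which left 21.2% of the tdTom- level.

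Uptake and cytosolic transport are represented by *Cd36* and by both fatty acid binding proteins. *Fabp1* (ENSMUSG00000054422, chromosome 6, 71199827 to 71205023), the liver-type binding protein, was at 1291, 2793 and 3641 CPM in tdTom- and at 134, 350.0 and 713 CPM in tdTom+ cells. It had the narrowest gap between the fractions, with the lowest tdTom- library (mouse 7) 1.81-fold above the highest tdTom+ library (mouse 5). Its log2 fold change was -2.92 (SE 0.13, edgeR adjusted p = 1.9e-10). *Fabp2* (ENSMUSG00000023057, chromosome 3, 122895072 to 122899506), the intestinal-type binding protein, was at 1798, 3364 and 4072 CPM in tdTom- and at 342, 633 and 920 CPM in tdTom+ cells. Of the 10 genes, *Dgat1* and *Fabp2* kept the most of their level, and *Fabp2* had a log2 fold change of -2.39 (SE 0.088, edgeR adjusted p = 3.8e-11).

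*Cd36* (ENSMUSG00000002944, chromosome 5, 17781690 to 17888801) encodes a membrane receptor that binds long-chain fatty acids. It had the fewest reads of the 10 and was at 29.2, 73.4 and 114 CPM in tdTom- and at 3.26, 7.86 and 15.1 CPM in tdTom+ cells, where the raw counts ran from 65 to 369. In contrast to the other 9 genes, its highest tdTom+ library was that of mouse 6 and not mouse 5. The log2 fold change was -3.06 (SE 0.086, edgeR adjusted p = 2.9e-12). *Cd36* is also expressed by macrophages, endothelium, adipocytes and platelets, whose markers were low in these libraries. The 5 macrophage markers summed to 3.34 to 10.03 CPM in tdTom- and 1.29 to 2.44 CPM in tdTom+, with *Cd68* and *Mrc1* lower in tdTom+ and *Adgre1*, *Csf1r* and *C1qa* under the filter. The 4 endothelial markers summed to 0.775 to 2.28 and 0.979 to 2.55 CPM, neither of the 2 tested passing the threshold, and all 4 adipocyte markers were at 0 counts in all 16 libraries. The 3 platelet markers summed to 1.37 to 5.68 and 0.245 to 1.18 CPM. *Itga2b* made up most of these sums and was lower in tdTom+. *Pf4* and *Gp9*, with at most 2 and 5 counts in any library, were under the filter. Of 4 lymphocyte and leukocyte markers, *Cd3e*, *Cd8a* and *Cd7* were lower in tdTom+, each lower in 7 mice and higher in 1. The 4 summed to 4.85 to 48.6 CPM in tdTom- and 3.11 to 11.4 CPM in tdTom+. In tdTom- the highest sums were those of mouse 7 (39.2 CPM) and mouse 8 (48.6 CPM), with the other mice at 4.85 to 15.3 CPM. The part of these cells in the fall of *Cd36* was not tested.

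The genes did not fall by the same amount, and 31 of their 45 pairs differed in the same direction in 8 of 8 mice. Each pair was compared by the difference between their log2 ratios (tdTom+ to tdTom-) within a mouse, which does not depend on library scaling. The test was an exact sign-flip permutation, two-sided, with mice as the unit. The smallest p that test can give is 0.00781, and 39 of 45 pairs passed an adjusted p of 0.05. *Apoa4* fell more than *Dgat1* in 8 of 8 mice, by a further 1.04 to 1.72 on the log2 scale (mean difference -1.41 ± 0.25, SD, n = 8, exact p = 0.00781, adjusted p = 0.0113). Each of *Apoa1*, *Apoa4* and *Apoc3* fell more than each of the other 7 genes in 8 of 8 mice. Within that chromosome 9 group, *Apoa4* and *Apoc3* had a mean difference of -0.016 (range -0.16 to 0.19) and *Apoa1* and *Apoc3* one of 0.070 (range -0.18 to 0.25), neither past the threshold. *Apoa1* fell less than *Apoa4* in 7 of 8 mice, by a mean of 0.086 (exact p = 0.0391, adjusted p = 0.0451). The binding proteins differed, *Fabp1* falling more than *Fabp2* in 8 of 8 mice by a mean of 0.53. *Mogat2* fell more than *Dgat1*, the enzyme of the next step, in 8 of 8 mice by a mean of 0.54. *Apob* and *Mttp*, whose products act together, differed by a mean of -0.25 (range -0.69 to 0.16, adjusted p = 0.0451, exact test). The other pairs that did not pass were *Apob* with *Mogat2*, with *Fabp1* and with *Cd36*, and *Fabp1* with *Cd36*. Leaving out 1 mouse at a time left 33 to 36 pairs.

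**Figure D2:**
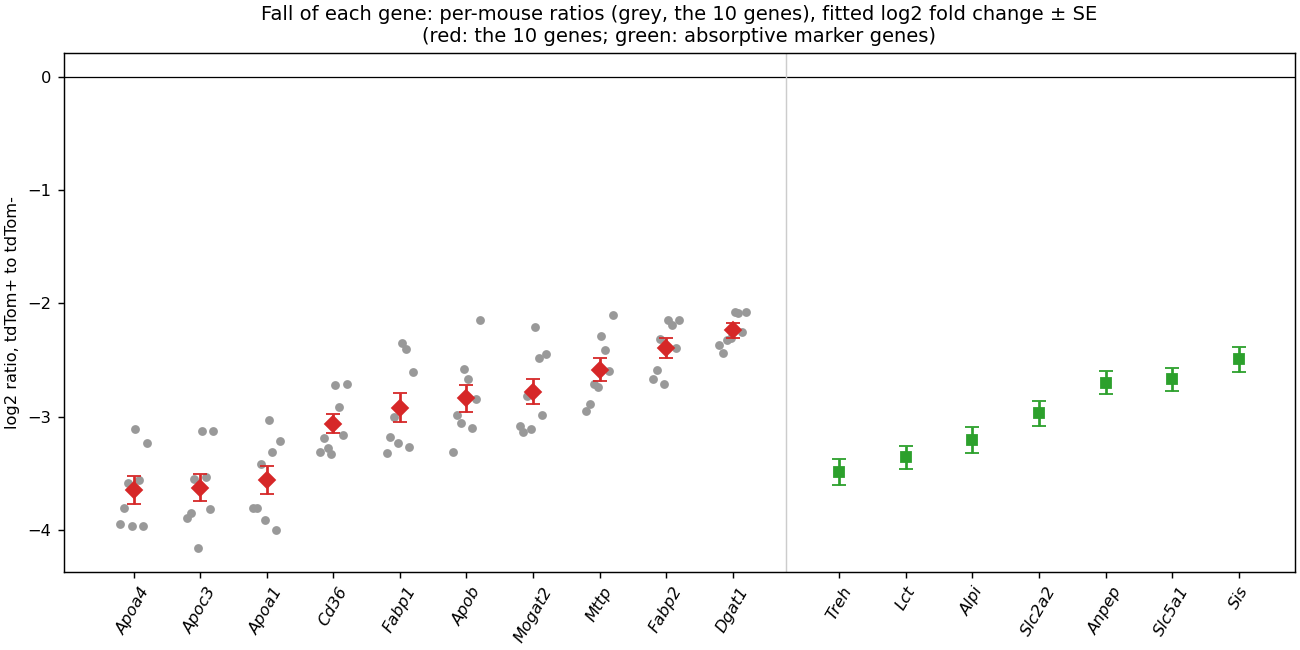
Log2 ratio of tdTom+ to tdTom- for each gene: grey points are the 8 mice, red diamonds the fitted log2 fold change with its SE, and green squares the fitted values of 7 absorptive marker genes that are not among the 10. *Apoa4*, *Apoc3* and *Apoa1* lie lowest at -3.65 to -3.56, *Dgat1* highest at -2.24, and the absorptive markers cover -3.48 to -2.49.

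The falls of the absorptive markers lay within the range of the 10 genes. The 7 markers had log2 fold changes from -3.48 (*Treh*, the brush border trehalase) to -2.49 (*Sis*, sucrase-isomaltase), with a median of -2.97. Their summed level was 7350.5 to 19058 CPM in tdTom- and 1121 to 3362 CPM in tdTom+, and mouse 7 was lowest in both fractions, as it was for each of the 10 genes. A difference between the 10 genes and these markers was not tested. Outside the 10 genes and the list of other fat absorption genes (described last), the genes whose 8 log2 ratios lay nearest to the median ratios of the 10 were *Ces2a* (root mean square difference 0.0754 over 8 mice), *Mep1b*, *Slc2a2*, *Rbp2* and *Aldh1a1* (0.126), out of 1632 candidates with at least 100 CPM in tdTom-. *Ces2a* is a carboxylesterase, *Mep1b* a brush border protease, *Slc2a2* a sugar transporter that is also 1 of the 7 markers, and *Rbp2* and *Aldh1a1* act on vitamin A. The likeness is a description, since all 5 share the libraries with the 10 genes.

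Some mice were at the same end for most of the genes. Mouse 7 had the lowest level of all 10 genes in tdTom- and of all 10 in tdTom+, and mouse 5 the highest of 9 genes in tdTom+ and of 6 in tdTom-. The log2 ratio between the fractions of mouse 7 was within the range of the other 7 mice for 8 of the 10 genes and just outside for *Apoa1* (-3.99 against -3.91 to -3.03) and *Apoa4* (-3.968 against -3.967 to -3.11). Added together, the 10 genes took 1.39, 3.04 and 3.76% of all assigned counts in tdTom- (lowest, median and highest library, mean 2.86 ± 0.80%, SD, n = 8). In tdTom+ they took 0.140, 0.310 and 0.594% (mean 0.338 ± 0.14%). The highest tdTom+ library was thus below the lowest tdTom- library. Without mouse 7 the means were 3.07% and 0.366%.

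Per unit of transcript length, the 10 genes fell into an abundant, a middle and a low tier. Levels are given in TPM, the counts per base of exon (length from the files) scaled to the same sum in every library, as mean ± SD (n = 8). In tdTom- cells *Fabp1* (9336 ± 2996 TPM), *Apoa1* (9256 ± 3199), *Apoa4* (9115 ± 4168) and *Fabp2* (6470 ± 1917) were highest, at positions 14, 15, 16 and 20 among all genes by mean TPM. *Mttp* (853 ± 269 TPM), *Apoc3* (742 ± 293), *Dgat1* (504 ± 143), *Mogat2* (421 ± 121) and *Apob* (398 ± 182) came next, and *Cd36* was last at 39.3 ± 18.5 TPM. Neighbours in this order that did not differ past their spread were *Fabp1* and *Apoa1*, *Apoa1* and *Apoa4*, and *Mogat2* and *Apob* (exact sign-flip test over 8 libraries, adjusted over 18 comparisons, adjusted p of 0.891, 0.387 and 0.311). The largest steps were from *Fabp2* to *Mttp* (mean log2 ratio 2.92) and from *Apob* to *Cd36* (3.31).

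The order changed in tdTom+ cells. *Fabp1* (937 ± 507 TPM) and *Fabp2* (878 ± 318) were highest, followed by *Apoa1* (584 ± 297) and *Apoa4* (529.6 ± 287), so that *Fabp2* was above both apolipoprotein genes in tdTom+ and below them in tdTom-. *Mttp* was at 102 ± 40.3 TPM and *Dgat1* at 75.4 ± 23.4, and *Mogat2* (45.6 ± 22.9), *Apoc3* (43.3 ± 19.9) and *Apob* (37.6 ± 13.3) followed. *Cd36* was again last at 3.33 ± 1.63 TPM. *Apoc3* moved from above *Dgat1* in tdTom- to below it in tdTom+, and those genes differed in their fall in 8 of 8 mice. Neighbours not past the threshold were *Fabp1* and *Fabp2*, *Mogat2* and *Apoc3*, and *Apoc3* and *Apob*. In position among all genes by mean TPM, *Fabp1* went from 14 in tdTom- to 69 in tdTom+, *Apob* from 223 to 1736 and *Cd36* from 2616 to 9801. TPM is a share of each library and is not TMM-scaled, so its change between fractions differs from the fitted fold change. *Hnf4a*, for example, had a mean of 235 TPM in tdTom- and 160 TPM in tdTom+ with a fitted log2 fold change of -0.038.

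**Figure D3:**
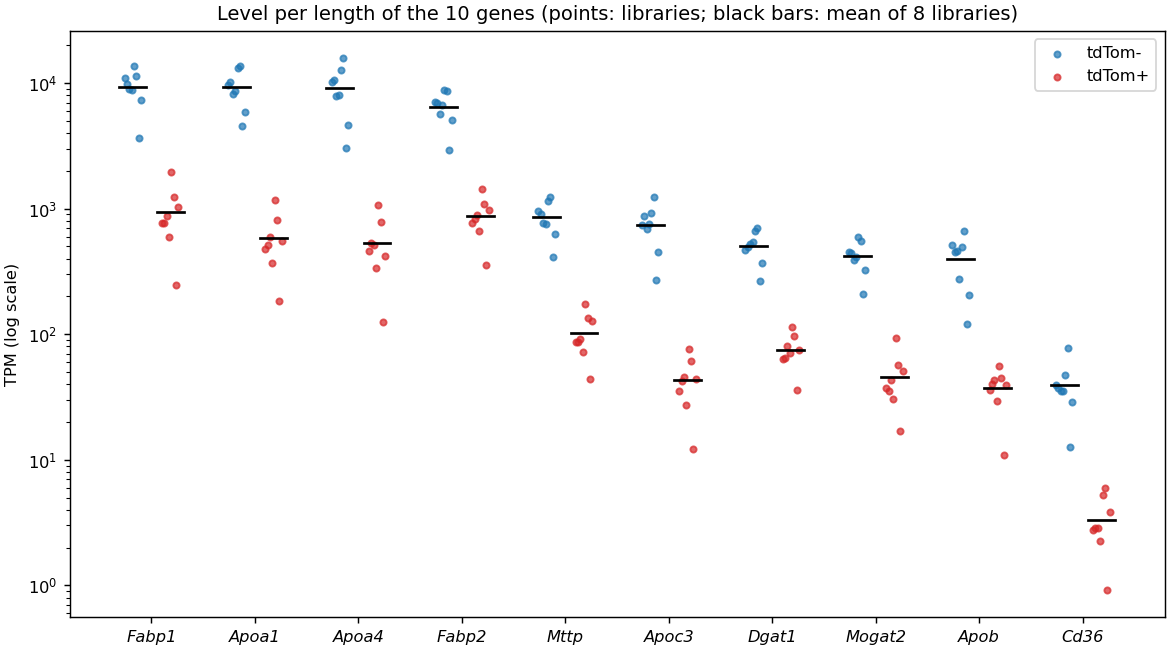
Level of each gene in TPM (log axis), ordered by the mean level in tdTom- cells, with each of the 8 tdTom- (blue) and 8 tdTom+ (red) libraries as a point and the mean as a black bar. *Fabp1*, *Apoa1*, *Apoa4* and *Fabp2* have means of 6470 to 9336 TPM in tdTom-, *Fabp1* and *Fabp2* lead in tdTom+, and *Cd36* is lowest in both.

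Other genes of fat absorption moved in both directions. A list of 62 such genes in 4 groups was compared, of which 61 were in the files and 55 could be tested. Of the 55, 40 were lower in tdTom+ (against 30.0% of all genes), 10 were higher (against 25.8%) and 5 did not pass. Without mouse 7 the counts were 40 lower and 11 higher. When a change of at least 2-fold was also required, 22 were lower and 3 higher. Over all 15323 genes tested, that rule left 1758 lower (11.5%) and 1740 higher. The counts of each group below stand beside the same shares over all genes, 30.0% lower and 25.8% higher without the 2-fold rule.

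In the uptake and activation group, 5 of 10 tested genes were lower, 3 higher and 2 did not pass, and the median log2 fold change was -0.079. *Slc27a4*, a fatty acid transport protein, was at 598 to 1205 CPM in tdTom- and 91.3 to 222 CPM in tdTom+ cells (log2 fold change -2.66, SE 0.079, edgeR adjusted p = 5.1e-12). *Acsl5*, an acyl-CoA synthetase that activates fatty acids, had a log2 fold change of -2.43 (SE 0.096) and was lower in 8 of 8 mice. *Fabp5*, the epidermal-type binding protein, went the other way from *Fabp1* and *Fabp2*, from 4.52 to 9.91 CPM in tdTom- up to 18.9 to 26.5 CPM in tdTom+ (log2 fold change 1.74, SE 0.12, higher in 8 of 8 mice, edgeR adjusted p = 2.7e-08). *Fabp6*, the ileal bile acid binding protein, had at most 9 counts in any library and was not tested. *Slc10a2* and *Fgf15*, which with *Fabp6* mark the distal small intestine, were also under the filter, and the 3 together summed to at most 0.814 CPM.

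In the re-esterification and lipid droplet group, 14 of 19 tested genes were lower and 4 higher, with a median log2 fold change of -0.67. *Dgat2*, the other enzyme of the last acylation step, was at 95.9 to 348 CPM in tdTom- and 22.5 to 55.8 CPM in tdTom+ cells, with a log2 fold change of -2.35 (SE 0.089, edgeR adjusted p = 4.5e-11) beside -2.24 for *Dgat1*. *Cidec*, which promotes fusion of lipid droplets, fell most in the group, from 20.6 to 77.2 CPM in tdTom- to 2.45 to 7.88 CPM in tdTom+ (log2 fold change -3.31, SE 0.11, edgeR adjusted p = 1.5e-11). *Gpat3*, an acyltransferase of the glycerol phosphate route, had a log2 fold change of -1.89, and *Plin2*, a lipid droplet coat protein, one of -1.43, both lower in 8 of 8 mice. *Mogat1*, the relative of *Mogat2* best known outside the gut, had at most 2 counts in any library.

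In the assembly and export group, 13 of 16 tested genes were lower and 3 higher, with a median log2 fold change of -0.88. *Prap1*, which encodes a secreted lipid-binding protein that aids *Mttp*-dependent transfer, was at 777 to 1342 CPM in tdTom- and 120 to 316 CPM in tdTom+ cells (log2 fold change -2.47, SE 0.090, edgeR adjusted p = 3.3e-11). *Pla2g12b* fell by 2.29, *Apoc2*, the activator of lipoprotein lipase, fell by 2.04 and *Tm6sf2*, needed for lipidation of apolipoprotein B particles, fell by 2.01 on the log2 scale. *Apoc2* shares 112 of its 932 exon bases with *Apoc4* on the same strand. *Sar1b*, the GTPase of the coat that moves chylomicrons out of the endoplasmic reticulum, had a log2 fold change of -1.34. *P4hb*, which encodes the small subunit of the transfer protein and a folding enzyme of all secretory cells, was at 1934 to 3423 CPM in tdTom- and 1681 to 1977 CPM in tdTom+ cells, a log2 fold change of -0.67 (SE 0.092, edgeR adjusted p = 2.1e-05) against -2.58 for its partner *Mttp*. *Apobec1*, which edits the *Apob* transcript to its short intestinal form, was higher in tdTom+ in 8 of 8 mice, from 20.6 to 40.1 CPM in tdTom- to 34.6 to 75.0 CPM in tdTom+ (log2 fold change 0.77, SE 0.088, edgeR adjusted p = 3.6e-06). *Apoe* was low, at 2.33 to 12.4 and 1.77 to 3.40 CPM, and its log2 fold change of -0.85 (edgeR adjusted p = 0.0044) did not pass the threshold without mouse 1, 3, 4 or 8 (adjusted p of 0.010 to 0.016).

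Among the 10 regulators, 8 were lower, none was higher and 2 did not pass, with a median log2 fold change of -0.54. When a change of at least 2-fold was also required, 4 were lower (against 11.5% of all genes tested). *Creb3l3*, a membrane-bound transcription factor of triglyceride metabolism, fell most, from 199 to 593 CPM in tdTom- to 20.7 to 82.5 CPM in tdTom+ (log2 fold change -3.29, SE 0.097, edgeR adjusted p = 4.8e-12). *Maf* had a log2 fold change of -2.54 and *Hnf4g* one of -1.997, each lower in 8 of 8 mice. *Hnf4a*, known to bind many apolipoprotein genes, was at 545 to 700 CPM in tdTom- and 521 to 653 CPM in tdTom+ cells, with overlapping fractions. Its log2 fold change was -0.038 (SE 0.063, edgeR adjusted p = 0.61), and its sign turned under 3 of 16 alternatives. Without mouse 6, or with at least 10 counts required in every library, 1 regulator was higher.

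**Figure D4:**
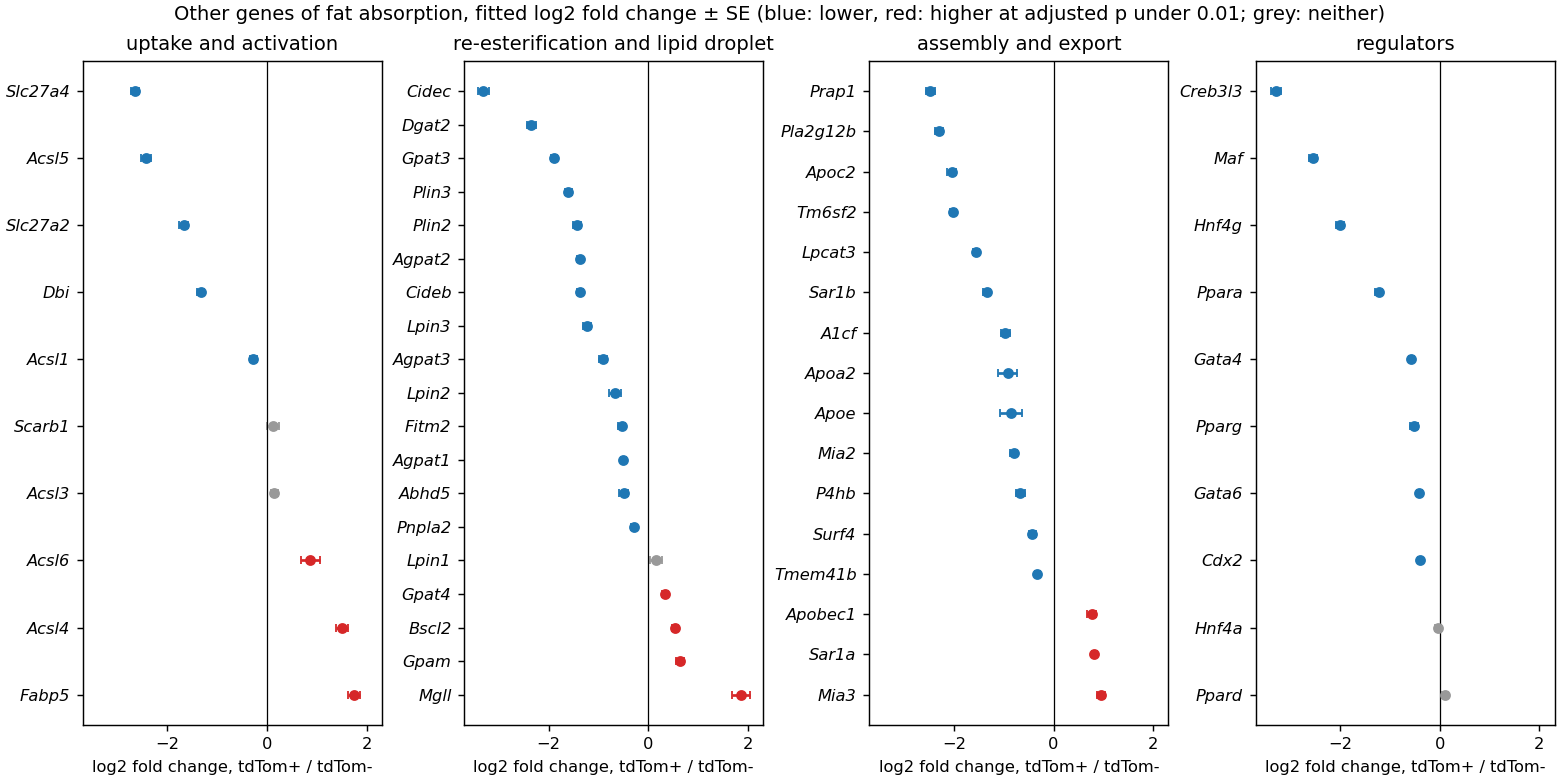
Fitted log2 fold change (tdTom+ to tdTom-) with its SE for the 55 tested genes of the fat absorption list in their 4 groups, blue where lower, red where higher and grey where the threshold was not passed. Most of the points lie to the left of 0, 40 blue against 10 red, with *Cidec* (-3.31) and *Creb3l3* (-3.29) farthest to the left and *Fabp5* (1.74) and *Mgll* (1.85) farthest to the right.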

How the data were processed

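Live EpCAM+ cells of crypt-enriched preparations were sorted by tdTom into lysis buffer, and libraries were made with a stranded mRNA kit. Per the submitters' processing notes the authors used TopHat2 2.1.1, Subread 1.5.2 and genome build GRCm38.p3. The deposited values are raw counts per Ensembl gene, and per the file headers featureCounts 1.5.0-p1 produced them, on exons, with reverse-strand assignment and primary alignments only, and with no normalization. A read from a near-identical copy can be assigned to either copy.

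Group labels gave the fraction and titles gave the mouse number. Each mouse gave both fractions according to the design text, so libraries were paired by that number. Deviations of the fractions of a mouse correlated at 0.404 on average (0.240 to 0.614), and those of different mice at -0.0541. Deviations were taken from the mean of each gene in its fraction. That ties the value for different mice to the value for the same mouse, so it is no separate support for the pairing. Of the 8 tdTom+ libraries, 7 correlated best with the tdTom- library of their own mouse. No libraries were identical. Symbols matched 44585 of 45513 identifiers.

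Counts were analysed in R 4.3.3 with edgeR 4.0.16: filterByExpr by fraction (15323 genes), TMM scaling, a quasi-likelihood F-test with the mouse as a block, and Benjamini-Hochberg adjustment over all genes tested at 0.01. The study names DESeq2, which was an alternative (DESeq2 1.42.0), as was limma 3.58.1. Fold changes are relative to TMM scaling, CPM use TMM library sizes, and TPM use the exon length in the files. The pairwise differences used counts plus 0.5, exact sign-flip tests over 256 sign patterns and a threshold of 0.05. The fit was also run on simulated counts in which a small set of genes changed, equally in both directions. That run does not test the scaling when as many genes differ as in these data. The biological coefficient of variation was 11.9%. Counting error is of that order for *Cd36* in its lowest library (65 counts) and smaller for the other 9 genes.

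The 10 genes, the pathway list, the marker lists and the tests were chosen with earlier results of these data known. Genes are named as members, as the 3 with the largest change of at least 10 CPM in each pathway group, as names fixed for their role, or as the 5 most alike by root mean square difference. *Mgll* was named after its values were seen. Of the absorptive markers first listed, 1 is not reported here, for a reason that does not depend on its value, and the counts, range and sums leave it out.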

Additional observations from a re-analysis of the deposited data

Results flagged for a closer look

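Within each fraction the 10 genes, their summed share and the log2 ratios were searched for a library that lies far from the other 7, by the gap to its nearest neighbour as a share of the whole range. Dixon's 95% limit for 8 values was used, which chance alone would pass in 1.6 of the 32 sets examined. Of the 32, 6 passed, all with the library of mouse 7 lowest. The sets share their libraries and are not independent, so the 6 are not separate findings to be weighed against 1.6. In tdTom- cells these were the log2 CPM of *Fabp2* (0.704), *Fabp1* (0.638), *Mogat2* (0.615), *Cd36* (0.597) and *Dgat1* (0.564). In tdTom+ cells it was *Apob* (0.641). The same tdTom- library had the lowest summed absorptive markers and the highest summed stem cell markers of its fraction, and the part of that in these values was not tested. All 10 genes were still lower in tdTom+ without this mouse.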

How the results depend on the processing

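The 10 genes were called lower under each of 18 alternatives, and none was called higher. These were other library scalings, DESeq2, limma-voom, no block, other count filters, each mouse left out, and other thresholds. Log2 fold changes ranged from -3.72 to -3.53 for *Apoa4* and from -2.30 to -2.12 for *Dgat1* over the 16 alternatives that refit the model. Without the mouse as a replicate block, 7606 genes were called (4133 lower, 3473 higher) in place of 8556, and the block changed no call among the 10. With no block, 34 of 45 gene pairs passed in place of 39. A further limit of 1 on the size of the log2 fold change left 3498 genes called, 1758 lower and 1740 higher, and in the fat absorption list 22 lower and 3 higher, which follows from the stricter rule. Leaving out 1 mouse gave 7911 to 8923 genes called, 3626 to 4623 lower and 3637 to 4529 higher, with 35 to 40 of the list lower and 10 to 11 higher. It gave 9 to 10 of the 18 level comparisons past the threshold in place of 12. *Hnf4a*, never past the threshold, turned positive with at least 10 counts in every library (0.081), without mouse 3 (0.044) and without mouse 7 (0.0077), with a range of -0.053 to 0.044 over mice left out. The cause was not tested. With that filter 3356 genes were lower and 4448 higher, and the median log2 fold change of all genes moved from 0.017 to 0.124, and to 0.122 without mouse 3, small beside the falls of the 10 genes. *Apoe* also lost its call with that filter (-0.73, edgeR adjusted p = 0.010). Depth limits *Cd36* most, at 65 to 369 counts in tdTom+, and *Fabp6* and *Mogat1* could not be tested.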

Other observations

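The 10 genes of the fat absorption list that were higher in tdTom+ cells, described after their values were seen, included *Mgll*, a monoacylglycerol lipase (2.55 to 7.18 CPM in tdTom- and 11.4 to 23.9 CPM in tdTom+, log2 fold change 1.85, SE 0.18, edgeR adjusted p = 6.4e-07). *Acsl4*, an acyl-CoA synthetase that prefers arachidonic acid, was at 1.91 to 4.74 and 6.79 to 12.0 CPM (edgeR adjusted p = 7.5e-08), while its relative *Acsl5* fell. *Sar1a* was higher in tdTom+ in 8 of 8 mice (51.4 to 60.5 CPM against 83.1 to 114 CPM, log2 fold change 0.82, SE 0.050, edgeR adjusted p = 5.7e-09), in contrast to *Sar1b*. *Mia3*, which helps to export large cargo such as collagen from the endoplasmic reticulum, was at 57.1 to 92.4 CPM in tdTom- and 124 to 183 CPM in tdTom+ (log2 fold change 0.95, SE 0.085). Besides *Fabp5* and *Apobec1*, the remaining 4 were *Acsl6*, *Gpam*, *Bscl2* and *Gpat4*, with log2 fold changes from 0.34 to 0.87.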
